A study of Drosophila melanogaster with 6 samples.

Results

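The genes described here encode the attacins, the diptericins and Drosocin, antimicrobial peptides that the fruit fly *Drosophila melanogaster* makes under control of the Imd pathway. They were chosen by name: AttA, AttB, AttC, AttD, DptA, DptB and Dro were looked up in the table of testis genes, and 6 of its 11491 genes matched. These were AttA, AttB, AttC, DptA, DptB and Dro, and AttD was not analysed here. All 6 passed the limit on low values and were among the 11164 genes tested. The rule uses the names alone and no measured value, but the members were chosen with earlier results of these data known.

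Whole testes of adult males came from Zeus KO flies or from a line given a control injection, and poly(A) RNA of each was sequenced as 3 libraries. In Zeus KO, Cas9 protein and a pair of guide RNAs had been injected into embryos of stock BDSC #25710, and small frameshift deletions in the coding sequence of Zeus create an early stop codon. Zeus is a young retrogene copied from Caf40, a subunit of the CCR4-NOT complex. The control carries the label WT and comes from the same stock, so the integrase transgene expressed from the nos promoter on X, the y, sc, v and sev mutations and the attP2 landing site of that stock are shared by both groups. The study names KO lines in the plural, and how the lines are divided over the libraries is not stated. All flies were kept at 25 °C, and every replicate was kept in PBS for 1 to 2 days before RNA extraction. The age of the males within adulthood is not given in the sources used here.

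The Imd pathway is the branch of fly innate immunity that answers mainly to Gram-negative bacteria. Peptidoglycan binds the receptors PGRP-LC and PGRP-LE, the adaptors Imd and Fadd bring in the caspase Dredd, the kinase Tak1 activates the IKK complex of IKKbeta and key, and the NF-κB factor Relish then switches on the peptide genes. The fat body releases these peptides into the blood during systemic infection, and epithelia such as the gut and the reproductive tract make them locally. In bulk RNA from whole testes, fewer cells of an expressing type and less RNA per cell cannot be told apart.

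The libraries held 12533272 to 18846182 sequenced reads. The deposited table gives the mean of each group as normalized reads, which are reads divided by the size factor of their library. The whole reads of each library were solved from these means, and a library is named below by the rank of its size factor in its group (largest, middle or smallest), since the solved libraries carry no replicate number. Zeus, listed as Rcd-1r, lay between 319 and 380 normalized reads in control against between 269 and 328 in Zeus KO, so the groups overlapped (limma, adjusted p = 0.314), and reads of a frameshift allele are counted like any others. Caf40, listed as Rcd-1, had a log2 fold change of -0.06 (limma adjusted p = 0.799). Genes of the testis germline and soma were present in both groups. The 14 tested genes of the germline list summed to between 17312 and 20444 normalized reads in control against between 18129 and 20340 in Zeus KO. This sum leaves out the most abundant germline genes, which could not be solved for single libraries. Among these, dj had a mean of 19507 in control against 16226 in Zeus KO, and Mst87F 27682 against 23775, with no test.

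All 6 genes lie on the plus strand of chromosome 2R in release 6 of the genome, the coordinates of dm6, at 3 places. AttC (FBgn0041579) stands alone at 13393705 to 13394667, with 2 exons. Dro (FBgn0010388, 14745961 to 14746714, 1 exon), AttA (FBgn0012042, 14747362 to 14748215, 2 exons) and AttB (FBgn0041581, 14749223 to 14750165, 2 exons) follow each other, with 647 bases between Dro and AttA and 1007 between AttA and AttB. DptA (FBgn0004240, 18865765 to 18866260, 1 exon) and DptB (FBgn0034407, 18867391 to 18867895, 2 exons) are 1130 bases apart. AttA and AttB encode near-identical proteins and may share reads, so their separate values are uncertain. The annotated end of AttC overlaps CG4744 on the minus strand, which starts at 13394615, and the end of DptB overlaps CG43109 on the minus strand, which starts at 18867848. Whether the counting used strand is not stated, so reads in these overlaps are uncertain too.

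These genes were weakly expressed in the testis libraries. In control, AttC exceeded 31.1% of the genes in the table, DptA 19.4%, AttB 11.6%, DptB 11.3%, Dro 8.28% and AttA 7.97%. Per kilobase of exon, AttC had 170.4 normalized reads in control and DptA had 155, followed by DptB with 82.5, AttB with 43.8, Dro with 34.0 and AttA with 31.1. In Zeus KO the order per kilobase was DptA with 80.7, AttC with 51.9, AttA with 35.5, AttB with 35.1, Dro with 14.96 and DptB with 11.4. Neighbours in the control order all overlapped over libraries, and in Zeus KO AttB and Dro were the single neighbouring pair that did not. A single library held between 1 and 139 reads of a member, so counting error alone is large for the lowest of them.

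Zeus KO testes held less AttC and DptB RNA than control testes. AttC fell to 30.4% of its control mean and DptB to 13.8%, and both changes passed the test. DptA and Dro had 52.1% and 44.0% of their control means, with Zeus KO libraries that all lay under the control libraries, but missed the adjusted threshold. AttA and AttB, at 114% and 80.3%, overlapped between the groups.

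AttC encodes the attacin with the highest level here. Its 3 control libraries held 124, 178 and 158 normalized reads, in the order of the largest, middle and smallest size factor, and the 3 of Zeus KO held 42.6, 53.6 and 43.9. The groups were well apart, and the highest Zeus KO library stood far under the lowest control library. The log2 fold change from control to Zeus KO, taken as throughout on the scale of log2(normalized reads + 1), was -1.69 (standard error 0.195, 95% confidence interval -2.11 to -1.26, adjusted p = 0.000250 from limma's moderated test with Benjamini-Hochberg adjustment over all genes tested). These values rest on 375 reads in control against 131 in Zeus KO.

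DptB encodes a diptericin, a glycine-rich peptide active against Gram-negative bacteria. It had 22.4, 29.5 and 59.2 normalized reads in the control libraries against 9.77, 4.28 and 1.33 in the Zeus KO libraries, in the same order of size factors. The control library with the smallest size factor was the highest of its group by far, and the Zeus KO library of the smallest size factor held a single read. The groups did not overlap, and the log2 fold change was -2.78 (standard error 0.564, 95% confidence interval -4.02 to -1.54, limma adjusted p = 0.0140). Leaving out the control library with the smallest size factor, the log2 fold change was -2.39 and the call was lost (limma adjusted p = 0.120). The whole of Zeus KO held 16 reads of DptB against 89 in control.

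DptA encodes the other diptericin. Its control libraries held 73.5, 93.7 and 63.2 normalized reads, and those of Zeus KO 41.7, 27.8 and 50.5. Every Zeus KO library lay under every control library, by a margin of 50.5 against 63.2 at the nearest pair. The log2 fold change was -0.95 (standard error 0.257, 95% confidence interval -1.51 to -0.38, limma adjusted p = 0.0605), just short of the threshold.

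Dro encodes the precursor of Drosocin, a proline-rich peptide that blocks bacterial translation. It had 17.1, 29.5 and 30.3 normalized reads in control against 10.7, 8.57 and 14.6 in Zeus KO. Here the groups came close, since the control library with the largest size factor stood only a little above the highest Zeus KO library. The log2 fold change was -1.10 (standard error 0.361, 95% confidence interval -1.89 to -0.31, limma adjusted p = 0.122).

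AttB had 25.6, 37.2 and 52.6 normalized reads in control against 24.9, 38.6 and 29.2 in Zeus KO, a log2 fold change of -0.27 (95% confidence interval -0.94 to 0.40, limma adjusted p = 0.681). AttA had 12.8, 39.8 and 21.1 in control against 18.6, 42.8 and 22.6 in Zeus KO, a log2 fold change of 0.24 (95% confidence interval -0.70 to 1.17, limma adjusted p = 0.809). In both groups the library of the middle size factor was the highest for AttA. The spread inside a group was larger than the difference between the groups for both genes, and their intervals reach from falls beyond the 1.5-fold limit to, for AttA, rises beyond it, so equal levels are not shown. Summed, because of the reads they may share, AttA and AttB had between 38.4 and 77.0 normalized reads in control against between 43.5 and 81.4 in Zeus KO, a log2 fold change of -0.08 (standard error 0.306, limma adjusted p = 0.916). The sum was chosen as a measure after the data were seen.

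**Figure D1:**
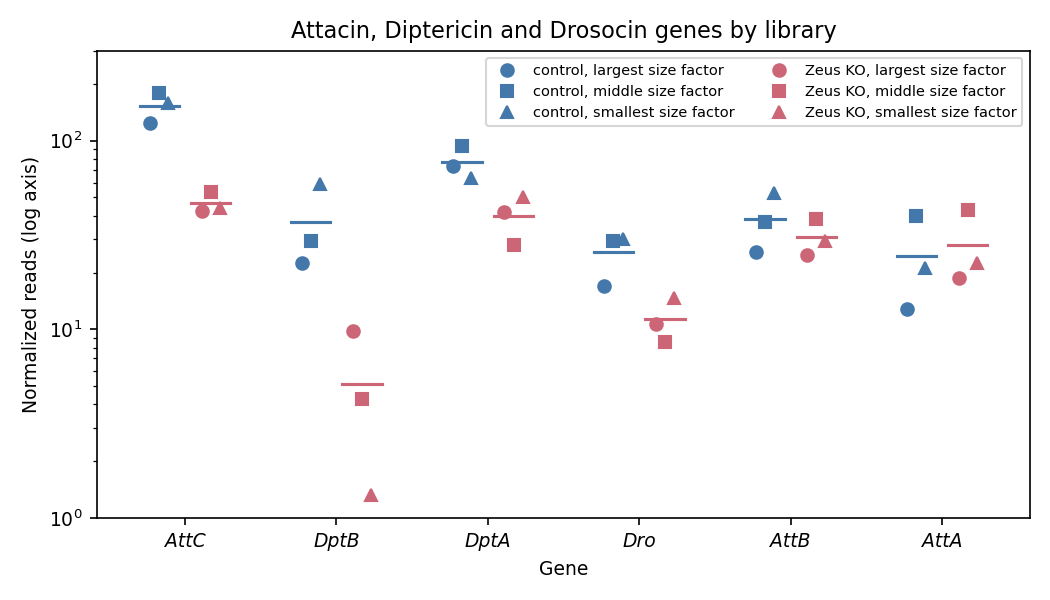
Normalized reads (vertical log axis) of the 6 genes in each of the 3 control libraries (blue) and 3 Zeus KO libraries (red), with the marker shape giving the rank of the size factor and the short line the group mean. The red points of AttC, DptB, DptA and Dro all lie under the blue points of the same gene, and those of AttB and AttA overlap the range of the blue points.

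Of the 6 genes, 2 were called lower in Zeus KO and 0 higher, where a call needed a limma adjusted p below 0.05 together with a change of 1.5-fold or more. Of all genes tested, 4.06% were called, 1.90% as lower and 2.16% as higher. At an unadjusted limma p below 0.05, 4 of the 6 genes were lower, against 9.71% of all genes. The Zeus KO libraries lay wholly under the control libraries in 4 of the 6 genes, against 11.6% of all genes tested. The median log2 fold change of the 6 genes was -1.02, and that of all genes tested was 0.00. The genes are few and AttA and AttB may share reads, so the counts describe these genes and carry no test of the group.

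**Figure D2:**
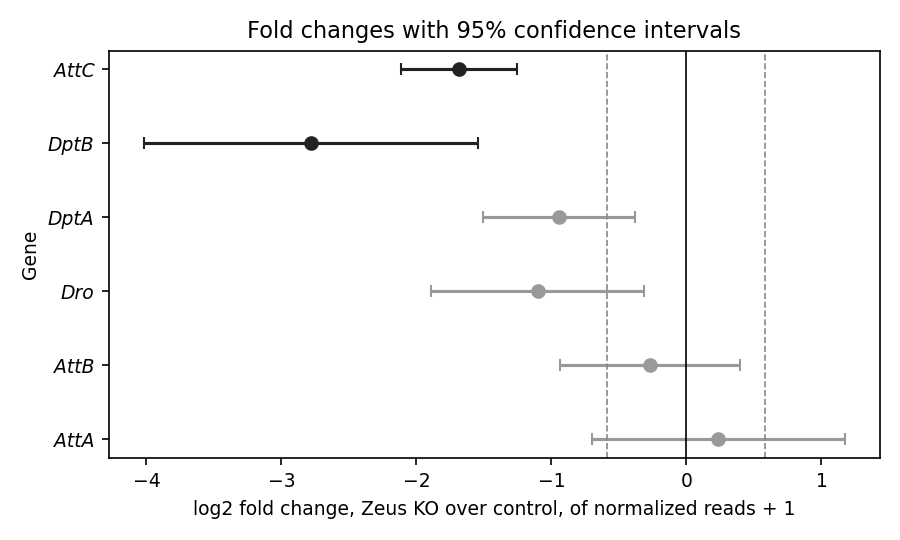
The log2 fold change from control to Zeus KO on normalized reads + 1 (horizontal axis) for the 6 genes, with 95% confidence intervals from limma. Black marks the called genes AttC at -1.69 and DptB at -2.78, grey the genes that were not called, and the dashed lines the 1.5-fold limit.

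Added over the 6 genes, the control libraries held 275, 408 and 384 normalized reads and the Zeus KO libraries 148, 176 and 162. The control mean was 356 ± 71.1 (SD, n = 3), and the Zeus KO mean was 162 ± 13.7 (SD, n = 3). The make-up of the sum differed as well. AttC made up 41.1% to 45.0% of it in the control libraries and 27.0% to 30.5% in the Zeus KO libraries, and AttA and AttB together 14.0% to 19.2% and 29.3% to 46.3%.

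Ratios within a library do not depend on its size factor, and 4 of them were compared. They restate the levels of the single genes given above, and those over the sum of AttA and AttB use a measure chosen after the data were seen. AttC over the sum of AttA and AttB was 3.22, 2.32 and 2.14 in the control libraries against 0.980, 0.658 and 0.846 in the Zeus KO libraries, a difference of -1.62 in the mean log2 ratio (2-sided exact permutation test, p = 0.1, adjusted p = 0.133 over the 4 ratios, where no p under 0.1 can be reached with 3 libraries in each group). Dro, the immediate neighbour of AttA, over the same sum was 0.444, 0.383 and 0.411 in control against 0.245, 0.105 and 0.282 in Zeus KO, a difference of -1.09 (exact permutation p = 0.1, adjusted p = 0.133). Within the diptericin pair, DptA was 3.29, 3.17 and 1.07 times as high as DptB in control against 4.27, 6.50 and 38.0 times as high in Zeus KO, where the last value rests on a single DptB read, and the log2 ratio of DptB over DptA differed by -2.19 (exact permutation p = 0.1, adjusted p = 0.133). DptA over the sum of AttA and AttB overlapped between the groups, from 0.857 to 1.92 in control against from 0.342 to 0.974 in Zeus KO (exact permutation p = 0.3, adjusted p = 0.3).

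The genes of the table that flank the 3 places did not pass the test. These neighbours were taken by position, 2 on each side of each place. Next to the Dro, AttA and AttB cluster, mspo had a log2 fold change of 0.73, CG12866 of 0.17, Rpn6, a proteasome subunit, of -0.01 and ave of -0.30. Beside the diptericin pair the values were -0.48 for CG43070, 0.00 for CG43069, -0.62 for sano and 0.20 for Vha100-3. Around AttC they were 0.00 for CG17048, 0.15 for CG43691, 0.23 for CG4744 and -0.07 for CG42321, with limma adjusted p between 0.176 and 0.995 over the 12 neighbours. CG4744, whose end overlaps AttC, averaged 3524 normalized reads in control against 4096 in Zeus KO.

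Of the components upstream of the peptide genes, 5 of 5 listed recognition genes and 12 of 14 listed signalling genes were tested, and 0 were called. Of all genes tested, 4.06% were called, so 0 calls in lists this short does not show that the pathway was unchanged. For recognition the median log2 fold change was -0.04. PGRP-LC, the transmembrane receptor of the pathway, had 149 to 169 normalized reads in control against 178 to 235 in Zeus KO, without overlap (log2 fold change 0.29, limma adjusted p = 0.330). PGRP-LE, an intracellular receptor, had 0.21. PGRP-SD, a secreted recognition protein, had a mean of 14.0 in control against 9.51 in Zeus KO. Among 12 signalling genes tested the median was 0.08. Rel, which encodes Relish, lay between 488 and 576 in control against between 498 and 606 in Zeus KO, with a log2 fold change of 0.05 (limma adjusted p = 0.845). Imd itself had 0.10, Dredd -0.08 and Tak1 0.19. The regulatory IKK subunit key had 610 to 641 normalized reads in control against 775 to 849 in Zeus KO, a log2 fold change of 0.38 with a limma adjusted p of 0.0471, and stayed under the 1.5-fold limit. IKKbeta had 0.29 (limma adjusted p = 0.260), and for both key and IKKbeta the Zeus KO libraries lay wholly above control. The same held for 11.8% of all genes tested.

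Of 14 genes listed as negative regulators of the pathway, 1 was called, against 4.06% of all genes tested. Whether this gene, PGRP-SB1, restrains the pathway was not tested here. PGRP-SB1, which encodes a secreted peptidoglycan amidase, had 32.0 to 56.5 normalized reads in control against 6.22 to 13.9 in Zeus KO and fell by 2.10 on the log2 scale (standard error 0.385, limma adjusted p = 0.00726). The groups were apart. pirk, whose product withdraws PGRP-LC and which is itself a Relish target, had 100.03 to 110.4 in control against 58.9 to 81.7 in Zeus KO, also without overlap (log2 fold change -0.62, limma adjusted p = 0.0873). PGRP-LB, another amidase gene induced by the pathway, overlapped between the groups, with 175 to 194 in control against 141 to 182 in Zeus KO (log2 fold change -0.25, limma adjusted p = 0.404). PGRP-SC1b, a further amidase gene, had 2.13 to 7.70 in control against 10.6 to 24.0 in Zeus KO, higher without overlap (log2 fold change 1.52, limma adjusted p = 0.140). In all, the Zeus KO libraries lay wholly above control in 2 of the 14 genes, PGRP-SC1b and cad, and wholly below in 2, PGRP-SB1 and pirk. Of all genes tested, 11.8% lay wholly above and 11.6% wholly below, so these counts are near the shares over all genes. The median of the 14 genes was 0.03.

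Of 16 other listed antimicrobial peptide genes, 7 were tested. Of these 7 genes, 3 were called lower and 0 higher, against 1.90% and 2.16% of all genes tested. Def, which encodes a defensin active mainly against Gram-positive bacteria, had 27.7 to 44.9 normalized reads in the control libraries against 0 to 0.888 in the Zeus KO libraries, where it was represented by a single read in all (limma adjusted p = 0.000157). Mtk, which encodes the antifungal peptide Metchnikowin, had 14.5 to 20.5 in control against 2.14 to 3.99 in Zeus KO, a log2 fold change of -2.07 (standard error 0.451, limma adjusted p = 0.0200). Drs, which encodes the antifungal Drosomycin and answers mainly to the Toll pathway, had 174 to 277 in control against 87.7 to 120 in Zeus KO, a log2 fold change of -1.15 (standard error 0.194, limma adjusted p = 0.00425). The other 4 did not pass. CecA1, a cecropin gene, had 261 to 280 in control against 306 to 426 in Zeus KO, higher without overlap (log2 fold change 0.36, limma adjusted p = 0.205). Anp, the andropin of the ejaculatory duct, had a mean of 3071 in control against 3050 in Zeus KO. Drsl4 and Drsl5, of the drosomycin family, had log2 fold changes of 0.23 and 0.16. The median over the 7 genes was -0.02.

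**Figure D3:**
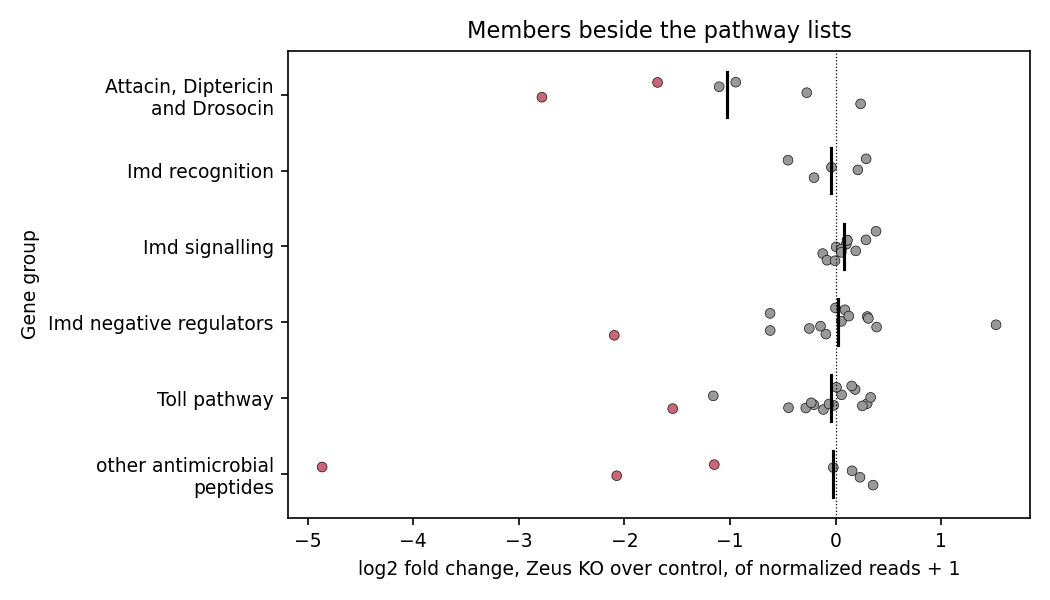
The log2 fold change from control to Zeus KO on normalized reads + 1 (horizontal axis) of each tested gene, by gene group (rows), with red for called genes, grey for the others and the black bar at the median, and with points shifted vertically at random. The attacin, diptericin and Drosocin genes have a median of -1.02, the Imd recognition, Imd signalling, Imd negative regulator, Toll and other peptide groups lie between -0.04 and 0.08 in the median, and the other peptides hold called genes down to Def.

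Of 8 marker lists of tissues, 3 had a lower sum in every Zeus KO library than in any control library (fat body, gut and, narrowly, accessory gland). A higher one was seen in 1 list (muscle), and 4 overlapped. Sums were taken over the tested genes of each list, which leaves out genes with a mean above 8000 in either group. Of all genes tested, 2.16% were called higher and 1.90% lower. The fat body list, of which 12 of 17 genes were tested, summed to 5098 to 6840 normalized reads in control against 3691 to 4562 in Zeus KO, 69.1% of the control mean, and did not overlap. Most of this sum came from apolpp and FASN1. Of its members, apolpp, the precursor of the lipid carrier lipophorin, fell from a mean of 2472 to 1204 (log2 fold change -1.03, limma adjusted p = 9.91e-05). FASN1 had a mean of 2227 in control against 1593 in Zeus KO, with overlapping libraries (log2 fold change -0.47, limma adjusted p = 0.174). Next in level, Apoltp had means of 525 in control against 456 in Zeus KO and bmm 464 against 534, both with overlap. Lsp1beta, a larval serum protein gene, fell from 19.1 to 2.70 (log2 fold change -2.49, limma adjusted p = 0.00863). Lsp2, of the same kind, rose from 77.3 to 173 (log2 fold change 1.09, limma adjusted p = 0.0262), and the yolk protein gene Yp3 had 11.4 and 8.73. The median of the fat body list was -0.38, with 1 gene called higher and 2 lower.

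The gut list of digestive enzymes, with 29 of 32 genes tested, summed to 46212 to 47446 in control against 26063 to 30629 in Zeus KO, with 7 genes called higher and 13 lower and a median of -0.40. The largest changes were those of the proteases Jon74E (-5.26) and Jon66Ci (2.66) and the trypsin betaTry (-1.70). Accessory gland genes, 11 of 21 tested, summed to 41361 to 53944 in control against 27020 to 41071 in Zeus KO, with 4 called lower and 0 higher and a median of -0.52, and the lowest were Acp76A (-1.17) and Acp53C14c (-1.08), ahead of Mst57Dc (-0.72). Muscle genes, 13 of 16 tested, went the other way in sum, from 15725 to 19398 in control against from 21782 to 23762 in Zeus KO, with 2 called higher, Mhc (0.61) and up (0.82), and 1 lower, Act79B (-2.50), and a median of 0.34. Hemocyte genes, 10 of 12 tested, overlapped in sum, from 2246 to 3080 in control against from 2471 to 2871 in Zeus KO, with 0 called and a median of 0.15. Hml, a defining marker of hemocytes, had a mean of 316 in control against 358 in Zeus KO. Genes of the ejaculatory duct and bulb (3 of 7 tested, median -0.19), the testis germline (14 of 20 tested, median 0.00) and the testis soma (8 of 8 tested, median -0.02) had 0 calls. With 4.06% of all genes called, 0 calls in lists this short, hemocytes included, does not show that these tissues were unchanged. The defining markers Fbp1, Yp1, Yp2, eater, Peb and Act88F were not analysed here, and each of the others had reads in both groups. Set against the fat body list within each library, AttC had 18.1 to 35.0 normalized reads per 1000 of that list in control against 9.92 to 11.7 in Zeus KO, and DptB 3.27 to 9.26 and 0.300 to 2.65. Set against the gut list, AttC had 2.68 to 3.77 per 1000 in control against 1.48 to 1.75 in Zeus KO, and DptB 0.484 to 1.25 and 0.0510 to 0.339. For both genes these ratios were lower in every Zeus KO library than in any control library, for DptB narrowly so against the fat body list (2.65 against 3.27). Both lists hold genes called in each direction, so their sums do not measure the amount of a tissue. The fat body sum also rests mostly on apolpp and FASN1, so ratios to it are mostly ratios to these genes. The part of carried-over tissue in the result was not tested.

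**Figure D4:**
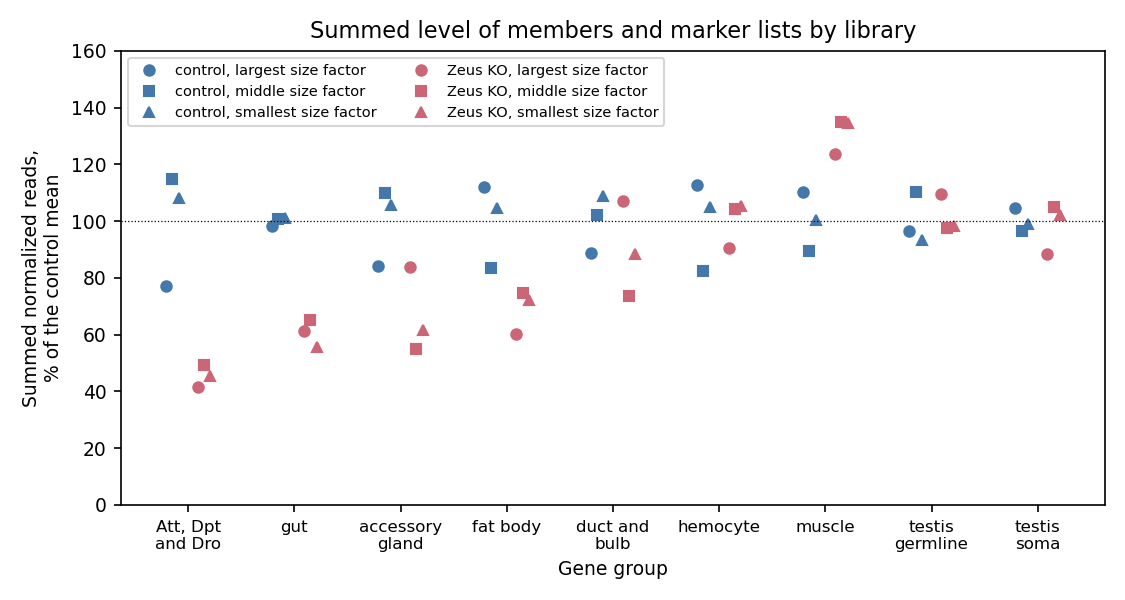
Summed normalized reads of the 6 genes and of 8 marker lists in each library, as a percent of the control mean of that list (vertical axis from 0), with control in blue, Zeus KO in red and the rank of the size factor as the marker shape. Genes with a mean above 8000 in either group are left out of the sums. The sums of the 6 genes, the gut, the accessory gland and the fat body are all lower in Zeus KO with no overlap, narrowly so for the accessory gland. Most of the fat body sum comes from apolpp and FASN1. The sum of muscle is higher, and those of the duct and bulb, hemocytes, testis germline and testis soma overlap.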

How the data were processed

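Poly(A) RNA of whole testes was sequenced in 3 Zeus KO and 3 control libraries. For the alignment to dm6 the authors ran STAR with its defaults, then featureCounts for the read counts, and DESeq2, edgeR and limma for their own comparison (versions and strand setting not given in the sources used here). The deposited signal of a gene is the mean over the libraries of a group of reads divided by size factors, without correction for length. The deposited count of sequenced reads comes from the authors' FastQC summary. The authors' fold changes, standard errors, test statistics, p-values, q-values, calls and overall means stand in the same table and were not used.

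A group mean is a sum of whole reads, each with a fixed weight per library (0.355, 0.428 or 0.439 in control and 0.296, 0.357 or 0.443 in Zeus KO), so the reads of each library were solved by search up to a mean of 8000. For 11178 of 11491 genes (97.3%) exactly 1 solution existed in both groups. The other 313 genes lie above the search limit and hold 36.2% of the normalized reads. Genes with a mean of at least 1 were tested with limma (version 3.58.1) with a trend on log2(normalized reads + 1) and a call needed an adjusted p below 0.05 (Benjamini-Hochberg) together with a change of 1.5-fold or more. Both steps were checked on simulated data. Where nothing says that libraries come from separate cultures of flies, p-values measure the spread between these libraries, which the study calls biological triplicates. Counts of reads without molecular identifiers are not independent molecules.

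Positions and exon lengths come from Ensembl release 115. The members, the design, all pathway and marker lists and the naming rule were chosen with earlier results of these data known. The rule names every member, Zeus, Caf40, from each list the called genes that changed most (at most 3) and the 5 genes most like the members over the libraries. Other genes, such as upstream components, markers and neighbours, were named for their role or position, after their values were seen. Alternatives were the pseudocount, the filter on low values, the scaling, limma's voom and leaving out each library.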

Additional observations from a re-analysis of the deposited data

How the results depend on the processing

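Under other pseudocounts (0.5 and 5), other filters on low values (none and a mean of at least 10), quantile normalization, scaling to the library total, voom, and with AttA and AttB summed, AttC and DptB stayed called and the other genes uncalled, and between 427 and 469 genes were called in the whole table, against 453. The log2 fold change ranged from -1.70 to -1.61 for AttC and from -2.95 to -2.04 for DptB, and the limma adjusted p of DptA from 0.0566 to 0.0718. With each library left out in turn, between 296 and 555 genes were called in the whole table, between 27 and 40 in the lists, against 35, and between 1 and 2 of the 6 genes. The lowest numbers of all genes and of the 6 genes came when the control library with the smallest size factor was left out, where AttC alone stayed called. Over these fits AttC ranged from -1.83 to -1.57, DptB from -3.32 to -2.22, DptA from -1.13 to -0.71, Dro from -1.36 to -0.94, AttB from -0.53 to -0.02 and AttA from -0.14 to 0.65, so the direction of AttA turned, on leaving out the control library with the largest size factor (-0.14) or the Zeus KO library with the middle one (-0.10). The cause was not tested. No paired analysis was possible because the solved libraries carry no replicate number. The low reads of DptB, Dro and AttA limit their precision.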

Other observations

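The Toll pathway, which controls Drs in the fat body, was measured with 16 genes, with a median log2 fold change of -0.04. Of these genes, 1 was called lower and 0 higher, against 1.90% and 2.16% of all genes tested. GNBP3, a secreted sensor of fungal glucans, had 71.1 to 90.6 normalized reads in control against 21.3 to 34.6 in Zeus KO, a log2 fold change of -1.54 (standard error 0.246, limma adjusted p = 0.00302). psh, the protease Persephone that is activated by microbial proteases, had 14.1 to 26.3 in control against 5.32 to 11.8 in Zeus KO, also without overlap (log2 fold change -1.16, limma adjusted p = 0.152). Dif and dl, the NF-κB factors of the pathway, had log2 fold changes of 0.30 and 0.01. The stress-induced Turandot genes TotA and TotM had means of 39.1 and 26.2 in control against 21.0 and 12.7 in Zeus KO (log2 fold changes -0.83 and -0.93, limma adjusted p = 0.206 and 0.198), so 0 of the 2 tested genes of this list of 8 were called, with a median of -0.88.

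The 5 genes whose levels over the 6 libraries followed the mean profile of the attacin, diptericin and Drosocin genes most closely were CG4955, CG17717, CG11251, CG9240 and CG5478, with Pearson's r between 0.990 and 0.995 among 10953 genes ranked. Libraries of both groups enter this likeness, which is given as a description. Their log2 fold changes were -0.23, -0.35, -0.32, -0.51 and -0.35 in the same order, smaller than those of AttC and DptB, and CG9240 alone had a limma adjusted p below the threshold (0.0157), under the 1.5-fold limit.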
